A study of Danio rerio with 24 samples.

Results

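A set of 5 enzyme genes of zebrafish was followed through all 24 libraries: ptgr1.2 (ENSDARG00000087017), cbr1l (ENSDARG00000021149), aifm4 (ENSDARG00000061634), pon1 (ENSDARG00000032496) and tpmt.2 (ENSDARG00000028012). These 5 of the 35117 genes in the count files were picked by name, because an earlier reading of the same counts had shown them higher in larvae treated with tetrahydrocannabinol (THC). Their THC minus DMSO values in larvae are therefore given as a description. Calls given for that comparison describe the choice only, and tests are read in other comparisons. All groups carried the transgene Tg(fli1:egfp), in which the endothelial gene fli1 lends its promoter to a green fluorescent reporter. They were treated with THC, with cannabidiol (CBD) or with the solvent DMSO as control. They were taken as embryos at 10 hours post-fertilisation (hpf), when gastrulation ends, or as larvae at 96 hpf, when liver, gut and kidney are working. Each of the 6 groups had 4 libraries. Neither the dose nor the length of treatment is stated in the labels. The labels do not say whether libraries of a group came from separate clutches, so p-values measure only the spread between these libraries.

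All 5 genes encode enzymes that change small molecules, many of them reactive or foreign to the body. Prostaglandin reductases such as ptgr1.2 use NADPH to reduce the double bond of reactive unsaturated aldehydes and ketones, among them products of lipid oxidation and oxidised prostaglandins. Carbonyl reductases such as cbr1l use NADPH to turn ketones and quinones into alcohols. The apoptosis-inducing factor family, to which aifm4 belongs, holds flavoprotein oxidoreductases, and its human member AIFM2 reduces ubiquinone and limits lipid peroxidation. Paraoxonases are calcium-dependent lactonases and esterases, and human PON1 is made by the liver and travels on high-density lipoprotein. Thiopurine methyltransferase, the enzyme for which tpmt.2 is named, transfers a methyl group from S-adenosylmethionine to sulphur atoms of drugs. In mammals the transcription factor Nrf2 raises several prostaglandin and carbonyl reductases when cells meet electrophiles.

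Total counts lay between 14879976 and 29641377 in 23 libraries, and DMSO library 4 of 10 hpf held 125926. A floor of 3 counts corresponds to 0.101 to 0.202 CPM (counts scaled to a common library size) in the 23 deeper libraries and to 23.8 CPM in the shallow one, where all 5 genes had 0 counts. The floor covers counting error only. All CPM levels that follow were also scaled by the trimmed mean of M values (TMM) within their stage. Marker sums went with the labelled stages: the summed level of 13 exocrine pancreas genes was 620 to 4089 CPM over the larval libraries and 0 to 18.7 CPM over the embryo libraries. The embryo libraries differed in progress: the early factor nanog was low in DMSO library 1 (9.41 CPM), CBD libraries 1 and 2 (10.0 and 10.98 CPM) and THC library 4 (10.2 CPM), and it had 69.7 to 200.3 CPM in the other 7 deep libraries. The libraries of low nanog were not alike in later markers. In DMSO library 1, CBD libraries 1 and 2 and THC library 4, smyhc1 had 66.6, 149, 0.216 and 1.79 CPM. There he1.1 had 60.6, 152, 10.6 and 16.9 CPM, against 0.640 to 3.43 CPM in the other 7 deep libraries. CPM values carry no correction for gene length, so levels are compared between groups and not between genes.

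In larvae the reductases had the widest and the narrowest THC difference of the 5 genes. The level of ptgr1.2 was 1.13, 1.67, 4.30 and 2.33 CPM in DMSO libraries 1 to 4. In THC libraries 1 to 4 it was 23.5, 40.2, 9.07 and 20.2 CPM, and in CBD libraries 1 to 4 it was 3.38, 3.41, 4.12 and 3.03 CPM. Every THC library lay above every DMSO and CBD library, while the CBD values fell inside the DMSO range. The THC libraries were themselves far apart, with library 2 highest and library 3 lowest. The fitted THC minus DMSO difference was 3.30 on the log2 scale (SE 0.429), a 9.87-fold higher level.

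The carbonyl reductase cbr1l had 64.7, 65.5, 74.9 and 72.3 CPM in DMSO libraries 1 to 4. It had 129, 145, 104 and 96.7 CPM in THC libraries 1 to 4 and 70.3, 74.4, 81.5 and 71.1 CPM in CBD libraries 1 to 4. The DMSO and CBD values interleaved and lay close together, and all 4 THC values were above them. The fitted THC minus DMSO difference was 0.78 on the log2 scale (SE 0.124), a 1.72-fold higher level. It was the smallest difference of the 5 genes, on the highest counts, 1178 to 3286 reads per larval library.

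For aifm4, the flavoprotein family member, DMSO libraries 1 to 4 had 18.1, 14.2, 29.4 and 17.0 CPM. The THC libraries had 43.4, 54.8, 49.0 and 36.2 CPM, and the CBD libraries had 24.9, 30.0, 26.0 and 28.1 CPM, again in the order 1 to 4. THC values lay above all others. In DMSO, 3 libraries were under the lowest CBD value and library 3 stood above all but 1 CBD library. The fitted THC minus DMSO difference was 1.22 on the log2 scale (SE 0.194), 2.33-fold.

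The paraoxonase pon1 had 13.2, 15.6, 18.1 and 10.7 CPM in DMSO libraries 1 to 4. Levels were 32.1, 36.0, 26.3 and 25.5 CPM in THC libraries 1 to 4 and 13.5, 18.1, 15.04 and 16.3 CPM in CBD libraries 1 to 4. CBD and DMSO larvae spanned much the same range, and the lowest THC library was above the highest of either. The fitted THC minus DMSO difference was 1.06 on the log2 scale (SE 0.165), 2.08-fold.

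The methyltransferase tpmt.2 differed from the other 4 in where CBD larvae lay. Its level was 3.42, 4.86, 4.11 and 4.28 CPM in DMSO libraries 1 to 4, 12.1, 17.0, 9.04 and 6.78 CPM in THC libraries 1 to 4, and 6.29, 7.51, 5.13 and 6.25 CPM in CBD libraries 1 to 4. Both treated groups lay wholly above DMSO, and THC library 4 fell under CBD library 2. The fitted THC minus DMSO difference was 1.43 on the log2 scale (SE 0.242), 2.70-fold.

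**Figure D1:**
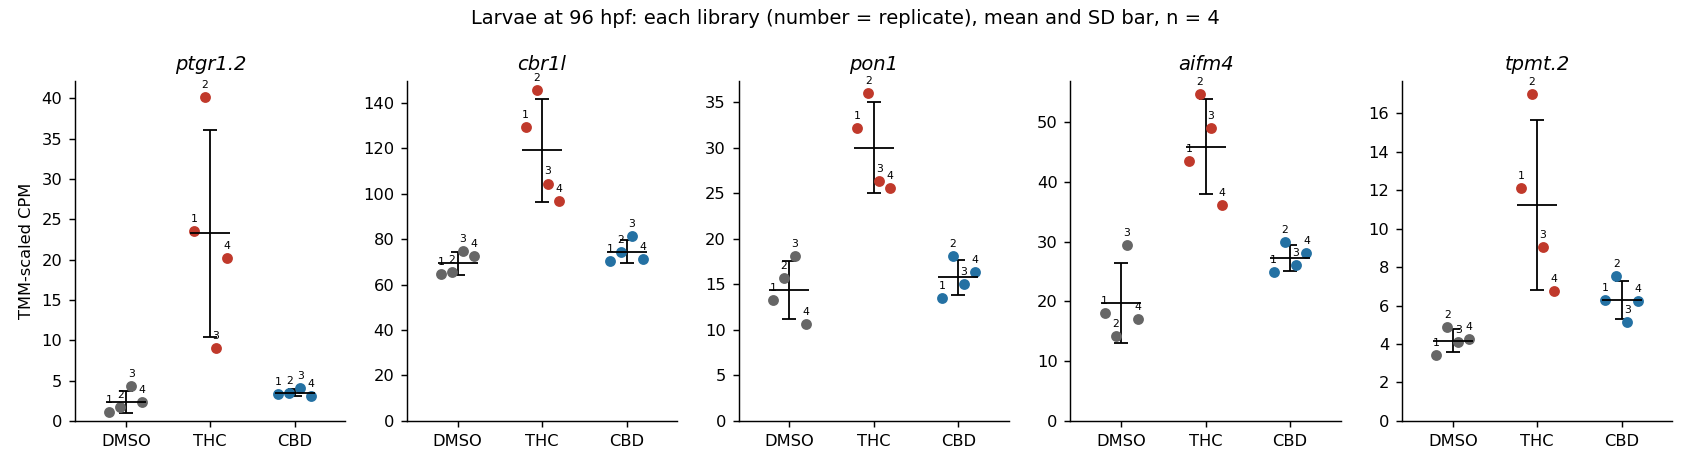
Level of each of the 5 genes in the 12 larval libraries at 96 hpf, in TMM-scaled CPM on axes that start at 0. Each point is 1 library with its number, and the bars are the group mean and SD. THC libraries lie above all DMSO libraries for each gene, from 9.07 to 40.2 CPM against 1.13 to 4.30 CPM for ptgr1.2.

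Larval group means ran in the same order for each gene, THC above CBD above DMSO. Mean levels in THC, CBD and DMSO larvae were 23.2 ± 12.9, 3.48 ± 0.454 and 2.36 ± 1.39 CPM for ptgr1.2 (SD, n = 4 per group, here and below). For cbr1l they were 119 ± 22.5, 74.3 ± 5.09 and 69.4 ± 5.05 CPM, and for aifm4 45.8 ± 7.94, 27.3 ± 2.24 and 19.7 ± 6.71 CPM. For pon1 they were 30.0 ± 4.98, 15.7 ± 1.95 and 14.4 ± 3.18 CPM, and for tpmt.2 11.2 ± 4.42, 6.30 ± 0.975 and 4.17 ± 0.593 CPM. The step from DMSO to CBD was smaller than the DMSO SD for ptgr1.2, cbr1l and pon1. For aifm4 the step was larger than that SD, though its CBD and DMSO libraries overlapped. Only for tpmt.2 did they not overlap. In whole animals, fewer cells of a type and less RNA per cell cannot be told apart.

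Across all genes, 11 of 21409 passed the quasi-likelihood test of edgeR between THC and DMSO larvae (0.0514% of genes, all higher), and groups were free of overlap with THC higher for 1.18% of genes. Among the 11 were 4 of the 5 genes , not tpmt.2, and all 5 were without overlap. These counts describe the choice of the genes and support nothing further. With 1 library left out in turn, the 11 became 1 to 31, the highest without DMSO library 3. The call of ptgr1.2 was lost in 6 of those 12 fits, without DMSO library 1, 2 or 4, CBD library 2 or 4, or THC library 1. The calls of cbr1l, aifm4 and pon1 were kept in 2 of the fits, without DMSO library 3 or THC library 4, and tpmt.2 was called in 1, without THC library 4.

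THC library 2 had the highest level of each of the 5 genes, and the order of the other THC libraries was not the same for all. THC library 4 had the lowest THC level of cbr1l, aifm4, pon1 and tpmt.2, and THC library 3 the lowest of ptgr1.2. Among controls, DMSO library 3 had the highest DMSO level of ptgr1.2, cbr1l, aifm4 and pon1, and DMSO library 2 of tpmt.2. With libraries 1 and 2 of both groups set against each other, the THC minus DMSO difference was 4.52 for ptgr1.2, 1.08 for cbr1l, 1.60 for aifm4, 1.24 for pon1 and 1.82 for tpmt.2 on the log2 scale. With libraries 3 and 4 it was 2.11, 0.42, 0.85, 0.82 and 0.89 in the same order. Each gene thus had a smaller difference in libraries 3 and 4. The labels name no batch, so the split rests on the library numbers alone, and it was not tested.

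**Figure D2:**
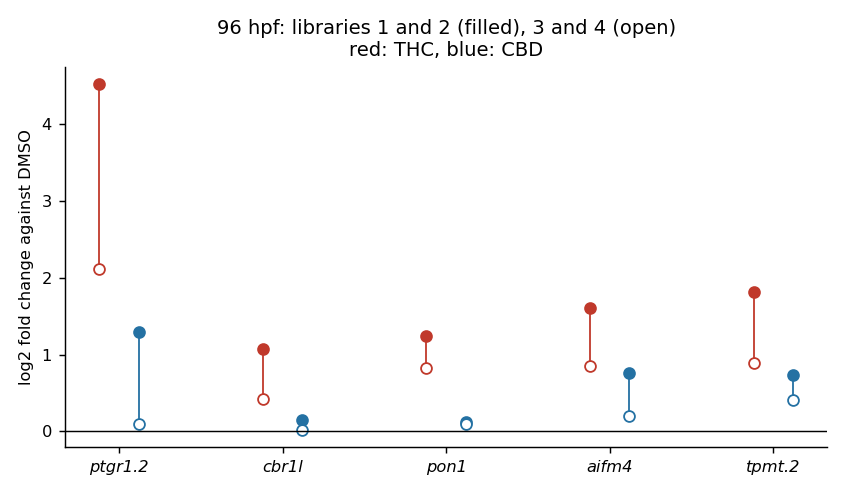
Log2 difference from DMSO larvae within libraries 1 and 2 and within libraries 3 and 4, for each of the 5 genes, with THC in red and CBD in blue. Filled points are libraries 1 and 2, open points libraries 3 and 4, each over 2 libraries a group, with no test. The THC minus DMSO difference of ptgr1.2 is 4.52 in libraries 1 and 2 and 2.11 in libraries 3 and 4.

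Markers of digestive organs also varied between the larval libraries. The summed exocrine pancreas level was 620, 651, 3124 and 1285 CPM in DMSO libraries 1 to 4, 2710, 4089, 1934 and 1161 CPM in THC libraries 1 to 4, and 1740, 3003, 1554 and 1866 CPM in CBD libraries 1 to 4. The groups overlapped, with DMSO library 3 and THC library 2 highest in their groups, as they were for 4 of the 5 enzyme genes. Summed hepatocyte markers ranged from 6321 to 8928 CPM in DMSO, 8019 to 9695 CPM in THC and 6777 to 8061 CPM in CBD larvae. The fitted THC minus DMSO difference was above 0 for 13 of 13 pancreas genes (median 0.88 on the log2 scale). It was above 0 for 16 of 18 hepatocyte genes (0.25), 13 of 18 intestine genes (0.27) and 11 of 15 pronephros genes (0.13). Over all genes the median was 0.01 and 52.8% were above 0. For CBD minus DMSO the counts were 13 of 13 pancreas genes (0.53) and 11 of 18 hepatocyte genes (0.06). They were 14 of 18 intestine genes (0.19) and 11 of 15 pronephros genes (0.07), with 53.2% of all genes above 0. None of these marker genes passed the test of edgeR. The marker lists were chosen with earlier results of these data known, so these counts are descriptions. Summed intestine markers were 2709 to 4798, 3655 to 4364 and 2979 to 3424 CPM, and summed pronephros markers 291 to 430, 336 to 431 and 335 to 402 CPM, in DMSO, THC and CBD larvae. The highest library of a group differed between marker sets. In pronephros sums it was again DMSO library 3 and THC library 2 (430 and 431 CPM). In intestine sums it was DMSO library 4 and THC library 4 (4798 and 4364 CPM). In hepatocyte sums it was DMSO library 4 and THC library 3 (8928 and 9695 CPM), and DMSO library 3 was lowest (6321 CPM). The part of these markers in the levels of the 5 enzyme genes was not tested.

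To ask whether CBD larvae differed from controls in these genes, CBD was set against DMSO at 96 hpf. None of the 5 genes passed the test, nor did any of the 21409 genes (0%). DESeq2 and limma voom with library weights called 0 genes. In edgeR 410 genes had an unadjusted p under 0.05, a smaller share than evenly spread p-values would give. The differences of cbr1l and pon1 were the smallest. For cbr1l the CBD minus DMSO difference was 0.10 on the log2 scale (95% interval -0.17 to 0.37, edgeR adjusted p = 1). For pon1 it was 0.13 (95% interval -0.23 to 0.48, edgeR adjusted p = 1), and it changed sign without DMSO library 4 (-0.0036).

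The interval of ptgr1.2 was wide, with a CBD minus DMSO difference of 0.57 (95% interval -0.36 to 1.5, edgeR adjusted p = 1). In libraries 1 and 2 that difference was 1.29 and in libraries 3 and 4 it was 0.10. The remaining pair, aifm4 and tpmt.2, had intervals above 0 before adjustment: 0.47 for aifm4 (95% interval 0.06 to 0.88, edgeR unadjusted p = 0.0289) and 0.59 for tpmt.2 (95% interval 0.07 to 1.12, edgeR unadjusted p = 0.0293). Both had an adjusted p of 1 in edgeR, so neither difference held up over all genes. Only tpmt.2 had CBD libraries that were all above DMSO, which held for 0.878% of genes. The DMSO libraries here are those with which the genes were chosen, so low control values enter both comparisons.

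CBD and THC larvae were compared directly, at doses that are not given. The log2 difference of CBD minus THC was -2.73 for ptgr1.2 (95% interval -3.62 to -1.85), -0.68 for cbr1l (-0.94 to -0.41), -0.75 for aifm4 (-1.16 to -0.34), -0.93 for pon1 (-1.29 to -0.58) and -0.84 for tpmt.2 (-1.35 to -0.33). All intervals were below 0, and the groups were free of overlap for all but tpmt.2. CBD libraries were lower than THC libraries without overlap for 1.13% of all genes. None of the 5 genes passed the adjusted threshold in edgeR, where 0 of 21409 genes were called (0%). There 540 had an unadjusted p under 0.05, again a smaller share than evenly spread p-values would give. DESeq2 called 13 genes, with ptgr1.2, cbr1l and pon1 among them, and limma voom called 3, with pon1 among them. Without THC library 3, edgeR called ptgr1.2 alone. High values in the THC libraries chose the genes, so these differences describe the choice as well.

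**Figure D3:**
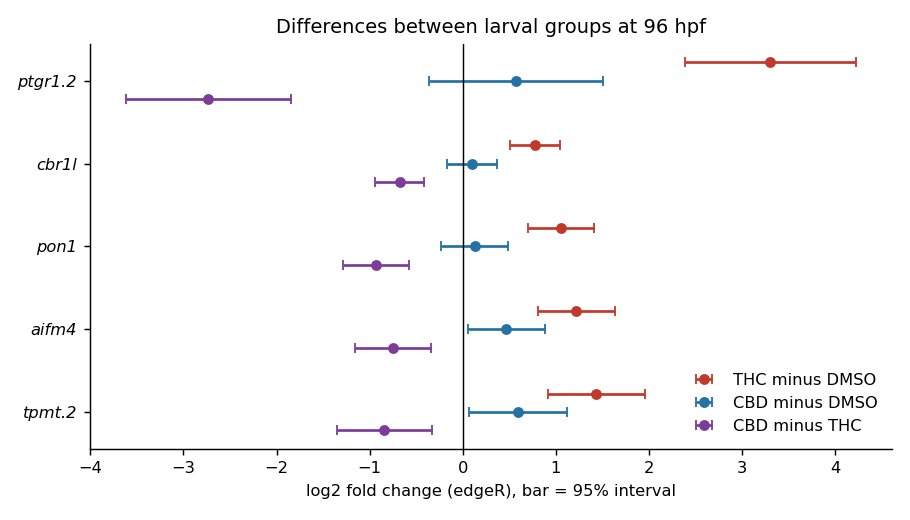
Fitted log2 differences of the 5 genes between larval groups at 96 hpf, with 95% intervals from the fit over 12 libraries. CBD minus DMSO intervals of ptgr1.2, cbr1l and pon1 include 0, and CBD minus THC intervals lie below 0 for all 5 genes. The THC minus DMSO values are those by which the genes were chosen, and the CBD minus THC values share the same THC libraries.

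At 10 hpf the 5 genes split by abundance. For ptgr1.2, DMSO, THC and CBD embryos had at most 7 counts in a library, and 8 of 12 libraries were at or under the floor. For tpmt.2 the highest count was 4, with 11 of 12 libraries at or under the floor. Neither gene passed the filter on low counts at this stage, so a treatment difference was not detectable at this depth.

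The other 3 genes were measured in embryos. For cbr1l, DMSO libraries 1 to 4 had 26.9, 13.1, 12.95 and 0 CPM, THC libraries 14.2, 12.1, 13.2 and 18.0 CPM, and CBD libraries 33.6, 19.6, 26.0 and 13.9 CPM. The highest DMSO and the highest CBD value belong to libraries 1, both of low nanog. At its depth the shallow DMSO library 4 would have held 2.23 reads of cbr1l at the mean of its group, so its 0 is no measurement. The DMSO mean without it was 17.7 ± 8.02 CPM (SD, n = 3).

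For pon1, DMSO embryos had 7.09, 4.11, 4.77 and 0 CPM in libraries 1 to 4, THC embryos 5.42, 3.76, 3.22 and 9.78 CPM, and CBD embryos 6.80, 7.35, 12.2 and 4.01 CPM. The highest THC and DMSO values again came from libraries of low nanog, though these differed in smyhc1. The highest CBD value came from library 3, of higher nanog, whose other stage markers were mixed. Its smyhc1 (0.332 CPM) and he1.1 (3.43 CPM) were low. Its ctslb, a later marker, was 17.05 CPM, near the 18.4 CPM of CBD library 2, of low nanog. Its tbxta, an early marker, was the lowest of the embryo libraries (103.9 CPM). CBD library 3 had counts for 20212 genes, against 23229 to 24432 in the other CBD embryo libraries. Its rank rests on the TMM scaling: CBD libraries 1 to 4 had 158, 136, 110 and 81 counts of pon1. Their total counts were 20598029, 18757444, 15307666 and 20872591, so per total count library 1 was highest. The same scaling raised all CPM values of CBD library 3, those of cbr1l, aifm4 and the stage markers included. For aifm4 the values were 3.43, 4.21, 3.46 and 0 CPM in DMSO, 3.69, 4.05, 3.22 and 5.32 CPM in THC, and 4.30, 4.11, 4.87 and 3.12 CPM in CBD libraries 1 to 4. Leaving aside the shallow library, aifm4 stayed between 3.12 and 5.32 CPM. The part of embryo progress in these levels was not tested.

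**Figure D4:**
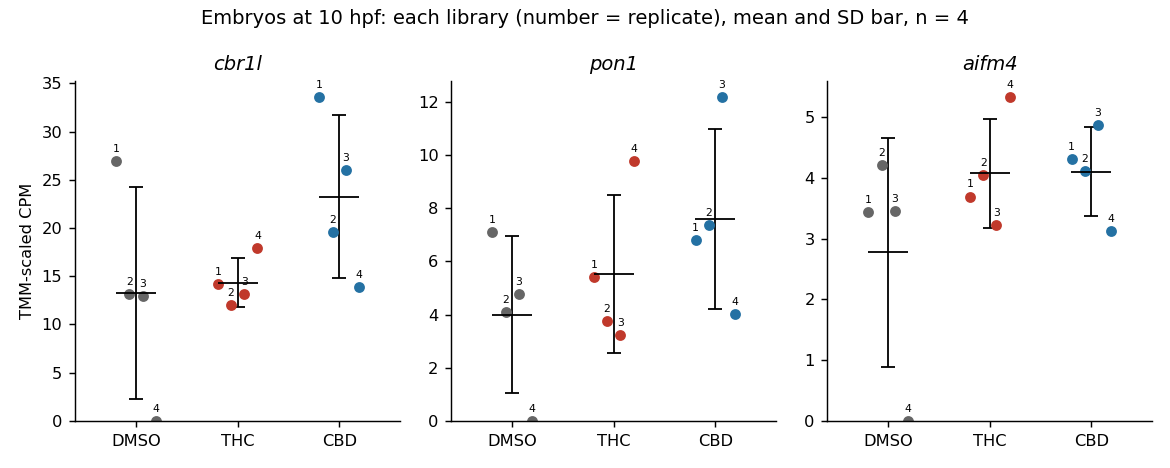
Level of cbr1l, pon1 and aifm4 in the 12 embryo libraries at 10 hpf, in TMM-scaled CPM. Each point is 1 library with its number, the bars are the group mean and SD, and DMSO library 4 is the shallow one with 0 counts. The 3 treatment groups overlap for all 3 genes.

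Groups overlapped for all 3 genes, and no difference passed the test in any embryo comparison. On simulated data the embryo fit of CBD against DMSO recovered 0% of 2-fold and 34% of 4-fold changes, so differences could be missed. With THC against DMSO, the log2 difference was -0.17 for cbr1l (95% interval -1.06 to 0.73), 0.14 for pon1 (-0.90 to 1.18) and 0.21 for aifm4 (-0.56 to 0.98), each with an edgeR adjusted p of 1. The sign for cbr1l turned without DMSO library 1 (0.29), and that for pon1 without THC library 4 (-0.28). No gene of 17595 was called by edgeR (0%), and 0 were called by DESeq2 and by voom. In edgeR 49 had an unadjusted p under 0.05, a far smaller share than evenly spread p-values would give.

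With CBD against DMSO in embryos, the log2 difference was 0.53 for cbr1l (95% interval -0.37 to 1.43, edgeR adjusted p = 0.844), 0.59 for pon1 (-0.46 to 1.63, edgeR adjusted p = 0.853) and 0.21 for aifm4 (-0.56 to 0.99, edgeR adjusted p = 0.952). For pon1 the difference was 0.86 without DMSO library 1 and 0.25 without CBD library 3. Without DMSO library 1 the cbr1l difference was 0.99, and without CBD library 1 it was 0.28. With CBD against THC it was 0.70 for cbr1l (-0.17 to 1.56, edgeR adjusted p = 0.571), 0.44 for pon1 (-0.55 to 1.44, edgeR adjusted p = 0.728) and 0.01 for aifm4 (-0.72 to 0.74, edgeR adjusted p = 0.997). Between CBD and THC the pon1 difference was 0.13 without CBD library 3 and 0.87 without THC library 4. The intervals for cbr1l and pon1 reach from below 0 to above 1 on the log2 scale. In these comparisons edgeR called 0 of 17595 genes (0%) with 952 and 1601 at an unadjusted p under 0.05, and voom with library weights called 428 and 719. DESeq2 called 0 in each, but between CBD and THC it gave an adjusted p to only 1166 genes, none of the 3 among them.

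Whether the CBD minus DMSO difference itself changed between 10 and 96 hpf was asked with an interaction contrast. The change was -0.60 for ptgr1.2 (95% interval -2.63 to 1.43), -0.40 for cbr1l (-1.22 to 0.42), 0.29 for aifm4 (-0.39 to 0.97), -0.42 for pon1 (-1.40 to 0.55) and -0.20 for tpmt.2 (-1.74 to 1.33) on the log2 scale. All 5 intervals included 0, with edgeR adjusted p from 0.866 to 1, and 0 of 22741 genes were called (0%), 1523 having an unadjusted p under 0.05. DESeq2 called 0 genes and voom called 578. For ptgr1.2 and tpmt.2 the embryo side had at most 7 and 4 counts in a library, so the contrast cannot settle a change for them. With voom their values turned to 0.32 and 0.81, and without CBD library 3 of 10 hpf tpmt.2 had 0.64.

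Between embryos and larvae of the control group, all 5 genes rose. On the scale of the fit over 24 libraries, mean DMSO levels at 10 and 96 hpf were 0.0693 and 2.18 CPM for ptgr1.2, 14.3 and 64.7 CPM for cbr1l, 3.01 and 18.3 CPM for aifm4, 4.33 and 13.4 CPM for pon1, and 0.0568 and 3.89 CPM for tpmt.2. The 10 hpf means include the 0 of the shallow DMSO library 4 and are lowered by it. On the scale within the stage, they were 13.3 CPM for cbr1l, 2.78 for aifm4 and 3.99 for pon1 with it. Without it they were 17.7, 3.70 and 5.33 CPM. Every larval DMSO library was above every embryo DMSO library for each gene, which held for 41.2% of all genes tested. The log2 difference was 4.47 for ptgr1.2 (SE 0.739) and 5.60 for tpmt.2 (SE 0.589). Both stood against embryo libraries with at most 2 counts, which makes these folds imprecise. Neither gene passed the filter in embryos alone, and both entered this fit through their larval counts. Their rise is therefore a description, and no test is read from it. The log2 difference was 1.84 for cbr1l (SE 0.297, edgeR adjusted p = 7.75e-06), 2.22 for aifm4 (SE 0.253, edgeR adjusted p = 5.81e-08) and 1.26 for pon1 (SE 0.352, edgeR adjusted p = 0.00268). Of 22741 genes, 77.1% were called and 42.7% were called higher in larvae, so a rise was common. The median over all genes was 0.32 on the log2 scale with the trimmed mean of M values and 1.14 with the size factors of DESeq2, under which the 5 genes had 5.30, 2.66, 3.06, 2.08 and 6.39 in the order ptgr1.2, cbr1l, aifm4, pon1 and tpmt.2.

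Related enzymes were counted to set the 5 genes among their families. The family lists were written with earlier results of these data known, so their counts are descriptions. Of 40 other genes in 6 family lists that were tested in larvae, none was called between THC and DMSO. Over all genes 0.0514% were called, so the lack of a call among 40 says little about them. The fitted difference was above 0 for 29 of 40, against 52.8% of all genes. Its median was 0.11 on the log2 scale against 0.01 over all genes, and it ranged from -0.54 to 0.84. The lists do not hold every related gene: dhrs11b.2, of the short-chain dehydrogenase family, is outside them. It had 20.5 ± 5.76 CPM in DMSO, 46.0 ± 16.4 CPM in THC and 24.6 ± 2.69 CPM in CBD larvae (SD, n = 4). Its THC minus DMSO difference was 1.17 (SE 0.240, edgeR adjusted p = 0.207). This gene was picked by its likeness to pon1 over the larval libraries (r = 0.918), so its difference shares the choice of pon1. Between CBD and DMSO larvae none of the 40 was called, as for all genes (0%). There 30 of 40 were above 0, against 53.2% of all genes, and the median was 0.12 against 0.01. All values in the paragraphs on single families that follow are THC minus DMSO in larvae on the log2 scale unless another comparison is named. None of the THC differences given for these relatives passed the edgeR threshold.

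The gene ptgr1.1 lies next to ptgr1.2 in the RefSeq annotation of the assembly GRCz12tu, and had 21.8 ± 6.18 CPM in DMSO, 25.3 ± 1.57 CPM in THC and 19.7 ± 0.900 CPM in CBD larvae (SD, n = 4). Its difference was 0.21 (SE 0.166). The reductases VAT1, CRYZ and PTGR2 had 0.06, 0.14 and -0.02. A test of ptgr1.2 against ptgr1.1 was not made. Near-identical paralogs can share reads, which makes the counts of such neighbours less certain. How alike ptgr1.1 and ptgr1.2 are in sequence was not examined.

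Among carbonyl and aldo-keto reductases, CBR1, the gene after which cbr1l is named, had 9.86 ± 2.75 CPM in DMSO, 9.49 ± 3.0 CPM in THC and 10.6 ± 1.53 CPM in CBD larvae, with a difference of -0.06 (SE 0.237). The mitochondrial reductase gene CBR4 had -0.07. Higher values were those of NQO1, a quinone reductase, with 0.49 (SE 0.124), of dhrs11b.1, of the short-chain dehydrogenase family, with 0.50 (SE 0.155), and of 1 of the 2 identifiers named AKR1B1, an aldose reductase, with 0.49 (SE 0.212, ENSDARG00000006215). The other AKR1B1 identifier, ENSDARG00000045598, had 0.11 (SE 0.143). AKR1A1, an aldehyde reductase, had 0.04.

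The paraoxonase genes pon1, pon3.2, pon3.1 and pon2 follow each other in the same annotation. Levels in DMSO, THC and CBD larvae were 19.4 ± 4.41, 22.3 ± 2.95 and 24.6 ± 1.92 CPM for pon2. They were 16 ± 1.40, 17.4 ± 2.16 and 18.3 ± 0.919 CPM for pon3.1 and 8.11 ± 3.16, 7.995 ± 0.543 and 8.61 ± 0.983 CPM for pon3.2. The differences were 0.21 for pon2, 0.12 for pon3.1 and -0.02 for pon3.2. For pon3.1 the CBD libraries (17.2 to 19.4 CPM) lay narrowly above the DMSO libraries (14.0 to 17.1 CPM). Such a lack of overlap held for 0.878% of all genes. The CBD minus DMSO differences of pon2 and pon3.1 were 0.35 (95% interval 0.02 to 0.68) and 0.20 (-0.04 to 0.44), each with an edgeR adjusted p of 1. From embryo to larva in DMSO, pon2 rose by 3.38, pon3.1 by 3.97 and pon3.2 by 1.01 on the log2 scale.

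In the apoptosis-inducing factor family, AIFM1, a mitochondrial protein of respiratory chain assembly, had 91.7 ± 9.56, 91.8 ± 9.02 and 90.9 ± 5.03 CPM in DMSO, THC and CBD larvae, with a difference of 0.00 (SE 0.102). AIFM2, the ubiquinone reductase gene, had 35.2 ± 4.37, 52.1 ± 7.05 and 38.8 ± 3.04 CPM, with a difference of 0.57 (95% interval 0.31 to 0.82, edgeR adjusted p = 0.215). For aifm5 the difference was -0.12.

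Among methyltransferases, tpmt.1, which lies next to tpmt.2, had 9.07 ± 1.1 CPM in DMSO, 16.3 ± 5.71 CPM in THC and 10.5 ± 1.18 CPM in CBD larvae. Its difference of 0.84 (95% interval 0.40 to 1.28, edgeR adjusted p = 0.444) was the highest of the 40 relatives. GAMT, which makes creatine, GNMT, which methylates glycine, and AS3MT, which methylates arsenic, had 0.04, 0.29 and 0.19. The esterase genes ces2a, ces3 and ACHE had 0.16, -0.18 and -0.03.

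**Figure D5:**
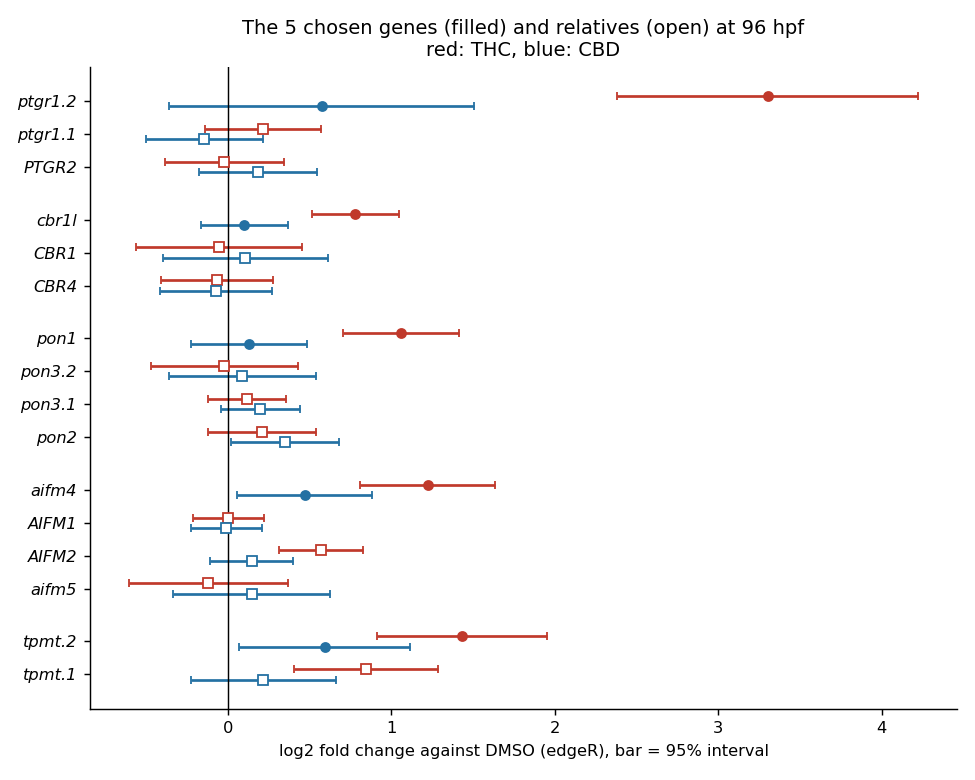
Fitted difference from DMSO on the log2 scale in larvae at 96 hpf, THC in red and CBD in blue, with 95% intervals, for the 5 genes (filled) and relatives nearest in name (open). The THC values of the relatives shown run up to 0.84 for tpmt.1, and those of the 5 chosen genes from 0.78 for cbr1l to 3.30 for ptgr1.2.

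Over the 12 larval libraries, the 5 genes had Pearson correlations of 0.84 to 0.953 with each other on log2 CPM. With group means removed, these were 0.313 (aifm4 with tpmt.2) to 0.734 (ptgr1.2 with cbr1l). The points share the 3 groups, by one of which the genes were chosen, and the libraries' makeup, so the values are descriptions with no p.

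The genes most like each of the 5 over these libraries were named by the 3 highest correlations. For ptgr1.2 they were ABCC12, an ABC transporter gene (r = 0.973, and 0.858 with group means removed), cbr1l (0.953 and 0.734) and PGD, an NADPH-producing enzyme of the pentose phosphate pathway (0.952 and 0.675). For cbr1l they were gstp1.2, a glutathione transferase (0.97 and 0.866), ABCD3, a peroxisomal transporter (0.962 and 0.935), and ptgr1.2. For aifm4 they were GSR, glutathione reductase (0.949 and 0.748), cyp2k18, a cytochrome P450 gene (0.941 and 0.752), and PIR (0.935 and 0.887). For pon1 they were ABCC12 (0.93 and 0.668), dhrs11b.2, of the short-chain dehydrogenase family (0.918 and 0.761), and cbr1l (0.916 and 0.52). For tpmt.2 they were PGD (0.941 and 0.819), si:rp71-26b20.1 (0.928 and 0.873) and its neighbour tpmt.1 (0.925 and 0.847). Besides the chosen genes, ABCC12 (1.09) and PGD (0.62) were called between THC and DMSO larvae, each with an edgeR adjusted p of 0.0404. The other genes named here were not called. Genes picked by likeness to the 5 share their choice, so these calls support nothing further.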

How the data were processed

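The authors deposited unnormalized read counts for each gene, 1 file per library, with 35117 Ensembl identifiers and 0 rows that name no gene. Per the submitters' processing notes, STAR, HTSeq and edgeR were used with the build GRCz11; no versions are named there. The file names speak of reverse strand and union mode. A table of gene names gave symbols for 27000 identifiers, many in human style.

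Each stage was fitted over its 12 libraries, and stage contrasts over 24, with edgeR 4.0.16 in R 4.3.3 (quasi-likelihood F test) after filterByExpr (minimum count 10, total 15) and scaling by the trimmed mean of M values. P-values were adjusted by Benjamini-Hochberg over all genes tested (threshold 0.05). SE and 95% intervals were derived from each fitted change and F. Fits were tested on simulated data.

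The 5 genes, the 6 family lists and the 5 marker lists (109 of 138 symbols matched) were chosen with earlier results of these data known. Named relatives are the 3 genes of each list with the highest mean larval CPM, and the 3 genes most correlated with each of the 5. CBR1, CBR4, PTGR2, dhrs11b.1 and the other AKR1B1 identifier are outside the rule and were picked with their values known. Gene pairs adjacent in RefSeq GRCz12tu were read for order only. Alternatives were DESeq2 1.42.0 (size factors, Wald test), limma 3.58.1 voom with library weights, other filters, fewer libraries, libraries 1 and 2 or 3 and 4 alone, and the replicate number as a block. All 36 pairs of replicates differed beyond sampling noise (lowest chi-square per degree of freedom 2.53).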

Additional observations from a re-analysis of the deposited data

How the results depend on the processing

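With 1 library left out, 585 values kept direction and call, 46 lost a call or fell in count, 7 gained, and 10 changed sign. Under other settings 294 were kept, 13 lost, 16 gained, 11 moved beyond the spread and 8 changed sign. Between THC and DMSO larvae the 11 calls became 54 with DESeq2, 18 with no filter, 1 with only the 8 libraries compared and 1 with the replicate block (1 to 31 with 1 library left out). The THC differences of the 5 genes kept their sign throughout. All THC libraries lay above all DMSO libraries for these genes, so leaving libraries out could not turn it. The kept sign therefore supports nothing further. Between CBD and THC larvae the 0 calls became 13 with DESeq2, 3 with voom, 1 with no filter and 3 with only the 8 libraries compared (0 to 1 with 1 left out). There ptgr1.2 passed with DESeq2 (-2.74, adjusted p = 4.82e-08) and with no filter (-2.73, adjusted p = 0.0477), was -2.01 in libraries 3 and 4, and ranged from -3.002 to -2.34 with 1 left out. With DESeq2, cbr1l (-0.69, adjusted p = 0.00101) and pon1 (-0.94, adjusted p = 0.000689) passed, as did pon1 with voom (-0.86, adjusted p = 0.0496), and cbr1l was -0.93 in libraries 1 and 2 and -0.40 in libraries 3 and 4. The THC libraries by which the genes were chosen enter this comparison, so these passes describe the choice and support nothing further. Between CBD and DMSO larvae ptgr1.2 was 1.29 in libraries 1 and 2, and pon1 ranged from -0.0036 to 0.26 with 1 left out.

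In embryos, voom called 428 genes for CBD against DMSO (0 to 4 with 1 left out) and 719 for CBD against THC (0 to 14), with the 4 and the 14 both found without CBD library 1. For THC against DMSO, cbr1l was 0.0094 under the replicate block and ranged from -0.32 to 0.29, and pon1 was -0.14 with voom and ranged from -0.28 to 0.42. For CBD against THC, aifm4 was -0.0198 with no filter and -0.0758 without DMSO library 4 and CBD library 3, and ranged from -0.0941 to 0.16. For the stage difference of the CBD effect, voom called 578 genes (0 to 4 with 1 left out), ptgr1.2 was 0.32 with voom, and tpmt.2 was 0.26 with DESeq2, 0.81 with voom and 0.65 without DMSO library 4 and CBD library 3, ranging from -0.65 to 0.64. The stage rise of pon1 was 1.04 (adjusted p = 0.069) under the replicate block. The causes were not tested.

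The labels do not say that a library number marks a shared clutch or day. Deviations of same-numbered libraries correlated at -0.25 to 0.402 in larvae (7 of 12 pairs over 0.1) and at -0.545 to 0.653 in embryos (4 of 12), and the own number was the best match in 8 of 24 and 5 of 24 checks of a library against another group. As some larval pairs did correlate, all 3 of number 1 among them, a partial pairing was not settled, and the replicate block was kept as an alternative. The shallow DMSO library 4 limits every embryo comparison with DMSO, and at 10 hpf ptgr1.2 and tpmt.2 are at the floor. DESeq2 gave cbr1l, pon1 and aifm4 no adjusted p for embryo CBD against THC.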
